A study of Mus musculus with 8 samples.

Results

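A set of 8 genes of the glia that wrap the nerves of the nose, out of 48831 genes in the count tables, was followed through whole-tissue RNA sequencing of the mouse vomeronasal epithelium: Sox10, Foxd3, Erbb3, Cdh19, Fabp7, Npy, S100b and Mbp. They were picked by symbol as genes known from ensheathing glia and Schwann cells, except that Cdh19 joined the list because it was higher in flushed libraries. The preparation values of Cdh19 are therefore given as a description, with no test, and the preparation counts below cover the other 7 genes. All 8 genes passed the filter on low counts, which left 20601 genes to test.

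The 8 libraries came from C57BL/6J mice aged 8 weeks, with no genotype or drug given in the labels. The groups, 4 with 2 libraries each, were set by sex and preparation: male pools and female pools, which were non-flushed and held tissue of 2 mice each, and flushed males and flushed females, which held tissue of 1 mouse each. A protocol common to the labels has every mouse flushed with heparin, against the descriptions that mark pools as non-flushed; grouping followed the descriptions. Flushing, the number of mice in a library and the sequencing run, which the file headers show as separate run folders, coincide, so these 3 cannot be told apart; "preparation" means all of them. Total counts ran from 18763557 to 22096792 in pools and from 22101913 to 24965088 in flushed mice. Mitochondrial genes took 0.272 to 0.322% of the counts of a pool and 0.569 to 0.693% of those of a flushed mouse. Of the defining genes of vomeronasal neurons, Omp, Gnai2, Gnao1 and Ano1 were present. Trpc2 had a count of 0 in every library, as all 2874 of its exon bases are shared with Xndc1 or Xntrpc and reads over more than 1 gene were not counted.

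Ensheathing glia accompany the axons of vomeronasal and olfactory neurons from the epithelium to the olfactory bulb, and Schwann cells ensheathe or myelinate the other nerves of the nose. Both descend from the neural crest. Sox10 is the transcription factor that specifies and maintains them, and Foxd3 acts earlier in the crest. The receptor Erbb3 pairs with Erbb2 to receive neuregulin from axons, a signal that Schwann cells need to survive. Cdh19 is a cadherin of the crest-derived glial lineage, Fabp7 a fatty acid-binding protein of immature and ensheathing glia, Npy a neuropeptide found in ensheathing glia, S100b a calcium-binding protein and Mbp a protein of compact myelin.

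Across all tested genes the preparation difference moved with base composition, so a stretch of 3 transcripts is printed to show the range: Sox10 from the GC-rich end, Cdh19 from the GC-poor end, and Fabp7, which lay far from genes of its own GC content. Each run is the first 120 bases of the longest coding exon of the first-numbered GENCODE M21 transcript, read 5′ to 3′ on the strand of the gene in GRCm38, with every G and C in capitals. The Sox10 stretch (chr15:79156522-79156641, minus strand, exon 4 of 4) held 80 G or C bases, or 66.7%. The Fabp7 stretch (chr10:57785506-57785625, plus strand, exon 2 of 4) held 58, or 48.3%, and the Cdh19 stretch (chr1:110890069-110890188, minus strand, exon 12 of 12) held 49, or 40.8%.
Sox10: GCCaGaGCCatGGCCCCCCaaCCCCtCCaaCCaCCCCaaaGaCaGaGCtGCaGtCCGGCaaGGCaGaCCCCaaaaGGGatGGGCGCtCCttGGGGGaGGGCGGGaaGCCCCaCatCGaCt
Fabp7: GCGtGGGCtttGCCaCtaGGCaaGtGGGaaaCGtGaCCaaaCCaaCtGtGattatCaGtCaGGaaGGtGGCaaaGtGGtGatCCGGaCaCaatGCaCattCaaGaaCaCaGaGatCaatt
Cdh19: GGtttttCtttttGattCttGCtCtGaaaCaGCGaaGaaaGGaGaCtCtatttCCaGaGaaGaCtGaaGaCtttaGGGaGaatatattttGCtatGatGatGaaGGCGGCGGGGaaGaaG

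Levels of different genes were compared as RPKM, which divides the count by exon length and by the scaled library size. Erbb3 had the highest mean level of the 8, at 18.3 ± 2.18 RPKM (SD, n = 8), and lay above S100b (10.1 ± 1.38 RPKM) in 8 of 8 libraries. Cdh19 (7.35 ± 3.02 RPKM), Sox10 (7.20 ± 1.92 RPKM), Fabp7 (5.46 ± 2.05 RPKM) and Mbp (4.45 ± 0.494 RPKM) followed. Their order was not the same in every library: S100b exceeded Cdh19 in 5 of 8, Cdh19 exceeded Sox10 in 4 of 8, Sox10 exceeded Fabp7 in 7 of 8 and Fabp7 exceeded Mbp in 5 of 8. The preparations differed in this order: Cdh19 was 4.17 to 4.74 RPKM in pools, below Sox10 and Fabp7 in all 4, and 9.78 to 11.04 RPKM in flushed mice, above both in all 4, so its mean rank describes neither. Mbp was in turn above Foxd3 (1.28 ± 0.463 RPKM), and Foxd3 above Npy (0.521 ± 0.253 RPKM), in 8 of 8 libraries. The Mbp level is divided by 8403 exon bases, the summed exons of all its annotated transcripts, so it depends on this annotation more than that of Npy, with 566 bases. Npy rested on 3 to 10 counts per library. Across the 8 libraries the ratio of the highest to the lowest CPM (the count relative to the TMM-scaled library size) was 1.37 for Mbp, 1.42 for S100b and Erbb3, 2.23 for Sox10, 2.65 for Cdh19, 2.78 for Foxd3, 2.93 for Fabp7 and 4.35 for Npy.

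Between preparations, 5 of the 7 glial genes open to a test fell in flushed mice and 0 rose: Sox10, Foxd3, Erbb3, Fabp7 and Mbp. S100b and Npy did not pass. The threshold was an edgeR adjusted p of 0.05 over all genes tested. Against this stands a wide background: 45.5% of all tested genes passed, 22.6% higher and 22.9% lower (4656 and 4721 genes). With library sizes from total counts the split was 6070 higher and 2862 lower. In bulk tissue, fewer cells of a type and less RNA per cell cannot be told apart.

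**Figure D1:**
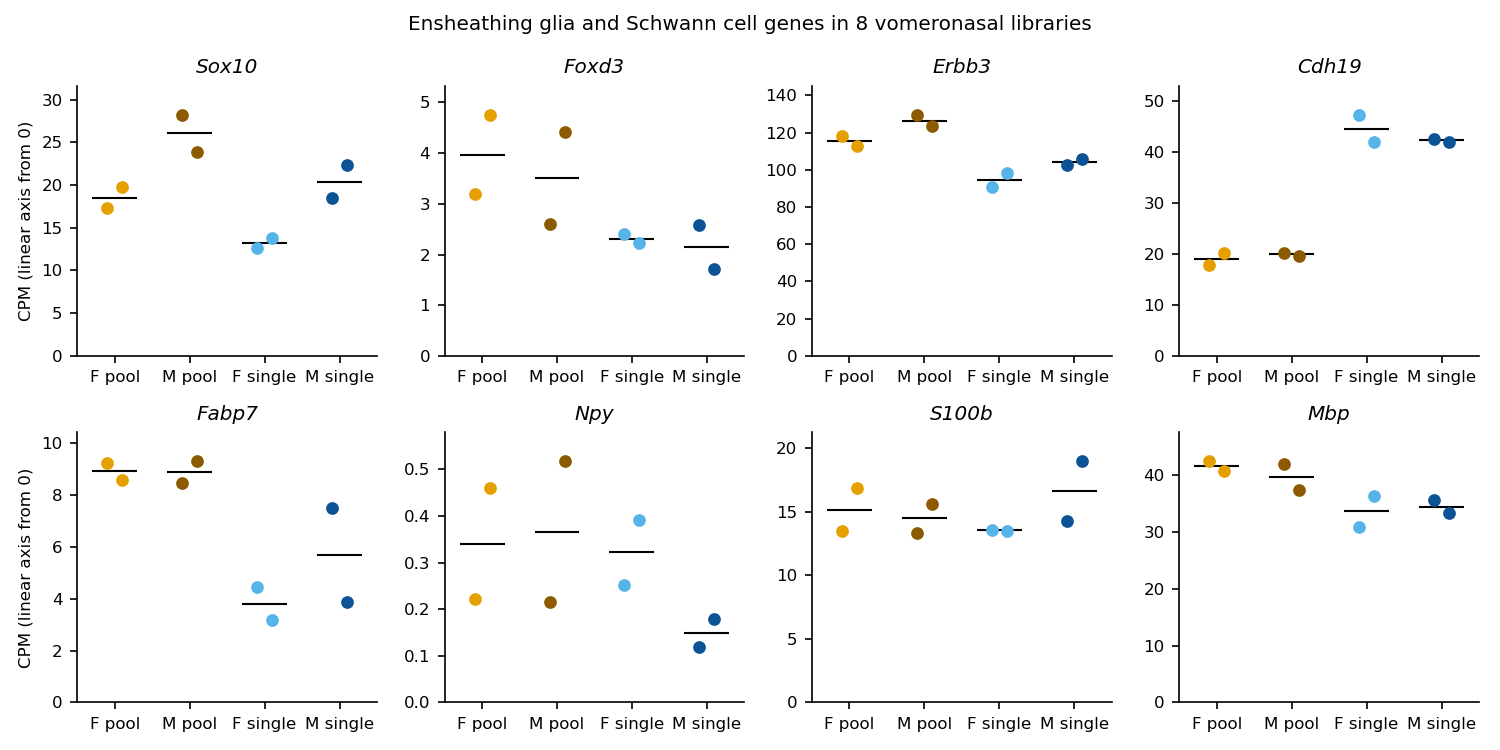
CPM of each of the 8 genes (linear axes from 0) in female (F) and male (M) pools of 2 mice and flushed single mice, 1 point per library, with a line at the mean of the 2 libraries of each group. Cdh19 is above 40 CPM in every flushed library and near 20 CPM in every pool, while Foxd3, Erbb3, Fabp7 and Mbp are lower in every flushed library than in any pool.

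Among the transcription factors, Sox10 (chromosome 15, 79154913 to 79164490, minus strand) had 28.2 and 23.9 CPM in male pools, 17.3 and 19.8 in female pools, 12.7 and 13.7 in flushed females and 18.4 and 22.4 in flushed males. Flushed males lay within the range of the pools, so the preparations overlapped, and within each sex both flushed libraries were below both pools. The mean was 22.3 ± 4.80 CPM in pools and 16.8 ± 4.47 CPM in flushed mice (SD, n = 4 each), and the fitted log2 difference was -0.42 (SE 0.09, 1.34-fold lower, edgeR adjusted p = 0.0047). Foxd3 (chromosome 4, 99656299 to 99658622), a gene of 38 to 93 counts per library, had 2.59 and 4.42 CPM in male pools and 3.19 and 4.75 CPM in female pools. It had 2.40 and 2.23 CPM in flushed females and 2.58 and 1.71 CPM in flushed males, all below the pools, though the lowest pool and the highest flushed library almost met. Its log2 difference was -0.74 (SE 0.22, 1.67-fold lower, edgeR adjusted p = 0.018). The Foxd3 call was lost without male pool 2 (edgeR adjusted p = 0.076), without female pool 2 (0.06) and without flushed male 3 (0.054). Of its exon bases, 89 of 2324 (3.83%) are shared with Gm23366, and the other 7 genes share none with a gene on the same strand.

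Erbb3 (chromosome 10, 128567523 to 128589652, minus strand), the neuregulin receptor, was the most deeply counted of the 8, with 2149 to 2671 counts per library. Its level was 129.5 and 123 CPM in male pools, 118 and 113 CPM in female pools, 90.9 and 98.6 CPM in flushed females and 103 and 106 CPM in flushed males. All flushed libraries lay below all pools, and the log2 difference was small (-0.28, SE 0.05, 1.22-fold lower, edgeR adjusted p = 0.0015). It held within females (-0.28, edgeR adjusted p = 0.027) and within males (-0.28, edgeR adjusted p = 0.03), where 26.9 and 24.7% of all tested genes passed. Sox10 passed within females (-0.49, edgeR adjusted p = 0.031) and not within males (-0.35, edgeR adjusted p = 0.085), and Foxd3 (edgeR adjusted p = 0.097 and 0.14) and Mbp (0.052 and 0.18) passed in neither sex alone.

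Cdh19 (chromosome 1, 110888326 to 110977584, minus strand), the cadherin, went the other way. Its level was 20.3 and 19.7 CPM in male pools and 17.8 and 20.2 CPM in female pools. In flushed females it was 47.3 and 41.9 CPM and in flushed males 42.5 and 42.0 CPM, so that no library of one preparation reached the range of the other, as for the 21.3% of all tested genes that were higher without overlap. The fitted log2 difference was 1.16 (SE 0.07, 2.23-fold), and it ran from 1.09 to 1.20 when each library was left out in turn. This difference is the reason Cdh19 is among the 8 genes, so its SE and range are descriptions and do not support the rise.

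Fabp7 (chromosome 10, 57784881 to 57788450), the glial fatty acid-binding protein, had 8.49 and 9.30 CPM in male pools and 9.25 and 8.59 CPM in female pools. The flushed females had 4.46 and 3.17 CPM and the flushed males 7.49 and 3.87 CPM. The pools lay close together and above every flushed library, and flushed male 1 was the nearest to them. The mean fell from 8.91 ± 0.431 to 4.75 ± 1.90 CPM (SD, n = 4 each, log2 difference -0.93, SE 0.21, 1.90-fold lower, edgeR adjusted p = 0.0051). Within females the log2 difference was -1.23 (edgeR adjusted p = 0.013) and within males -0.64 (edgeR adjusted p = 0.12). These 2 values were not shown to differ (interaction 0.59, SE 0.40, edgeR adjusted p = 1).

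Mbp (chromosome 18, 82475146 to 82585637), of compact myelin, had 42.1 and 37.4 CPM in male pools and 42.5 and 40.8 CPM in female pools, against 31.0 and 36.4 CPM in flushed females and 35.6 and 33.4 CPM in flushed males. The groups did not overlap, by a margin of about 1 CPM, and the log2 difference was -0.26 (SE 0.07, 1.19-fold lower, edgeR adjusted p = 0.013). The call was lost without male pool 1 (edgeR adjusted p = 0.061) and with library sizes from total counts (-0.14, edgeR adjusted p = 0.17).

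S100b (chromosome 10, 76253853 to 76261159), which chondrocytes also make, had 13.4 and 15.6 CPM in male pools and 13.5 and 16.8 CPM in female pools. It had 13.6 and 13.4 CPM in flushed females and 14.3 and 18.9 CPM in flushed males. The groups overlapped, with a log2 difference of 0.02 (SE 0.12, edgeR adjusted p = 0.92). Npy (chromosome 6, 49822710 to 49829507) had 4 and 9 counts in male pools, 5 and 9 in female pools, 6 and 10 in flushed females and 3 and 4 in flushed males. The groups overlapped, with a log2 difference of -0.56 (SE 0.47, edgeR adjusted p = 0.36). That SE exceeds the difference seen in Sox10, so a change of that size was not detectable in Npy at this depth. Of the 7 tested genes, Foxd3, Erbb3, Fabp7 and Mbp had no overlap between preparations, all lower in flushed mice, where 20.4% of all tested genes were lower without overlap.

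The preparation difference of all tested genes moved with the GC content of their transcripts, and some of the glial genes stood near the level of their GC class while others did not. When the tested genes were put into 10 classes by the GC content of the longest transcript, the median log2 difference ran from 0.66 in the lowest class, where 72.0% of genes were higher in flushed mice, to -0.40 in the highest, where 59.5% were lower. Sox10 (61.8% GC) and Foxd3 (65.1%) belong to the highest class. Cdh19 (37.4%) belongs to the lowest, and since it was listed for its rise, its place there supports nothing. The Sox10 difference of -0.42 stood at percentile 46.4 of its class, that of S100b at percentile 49.3, Mbp at 35.9 and Erbb3 at 32.8. Foxd3 (percentile 13.2), Npy (12.6) and Cdh19 (85.9) were farther out. Fabp7 (42.6% GC) stood at percentile 0.78 of a class whose median was 0.38. In the printed stretches Sox10 is mostly G and C, Cdh19 mostly A and T, and Fabp7 in between. The classes rest on the longest whole transcripts, not on these stretches. The Fabp7 stretch held 48.3% GC against 42.6% in the longest transcript, and the Cdh19 stretch 40.8% against 37.4%. Fabp7 fell although the median gene of its class was higher in flushed mice.

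**Figure D2:**
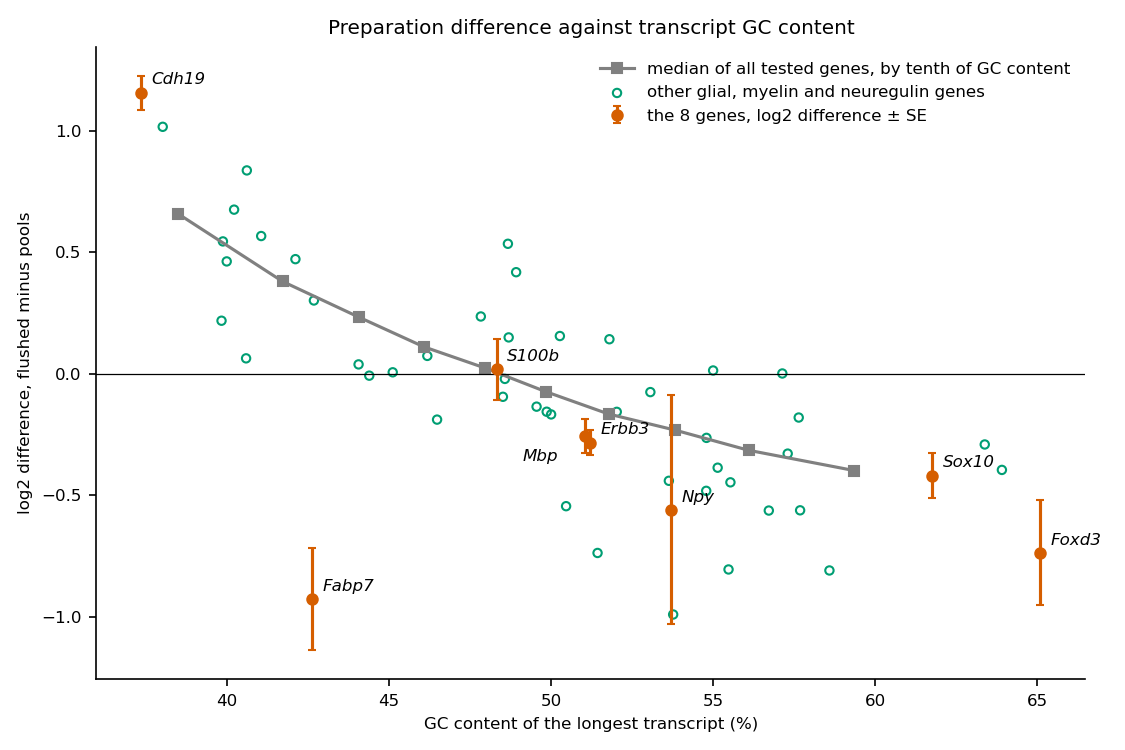
Log2 difference between flushed mice and pools (vertical axis) against the GC content of the longest transcript in percent (horizontal axis), for the 8 genes with their SE, for other glial, myelin and neuregulin genes (open circles) and as the median of all tested genes in 10 classes of GC content (grey squares). The grey line falls from 0.66 to -0.40, Sox10 and S100b lie near its level, Cdh19 lies above it and Fabp7 far under it.

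With GC content corrected by an offset for each library, an alternative added after the data were seen, 1 of the 7 genes passed, Fabp7, against a background of 23.2% of all tested genes (12.1% higher and 11.1% lower). Its log2 difference was -1.25 (SE 0.21, 2.38-fold lower, edgeR adjusted p = 0.003), and it passed without any 1 of the 8 libraries (-1.53 to -1.10, edgeR adjusted p of 0.013 at most). Sox10 changed sign, to 0.05 (SE 0.09, edgeR adjusted p = 0.76). Foxd3 stood at -0.17 (SE 0.18, edgeR adjusted p = 0.54), Mbp at -0.12 (SE 0.07, edgeR adjusted p = 0.22) and Erbb3 at -0.14 (SE 0.05, edgeR adjusted p = 0.066). Erbb3 passed when exon length was corrected as well (-0.17, edgeR adjusted p = 0.024), in a fit where 21.8% of all genes passed and Fabp7 also did (-1.19, edgeR adjusted p = 0.0038). Cdh19, listed for its rise and given without a test, stood at 0.45 (SE 0.07) in both corrected fits, down from 1.16.

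**Figure D3:**
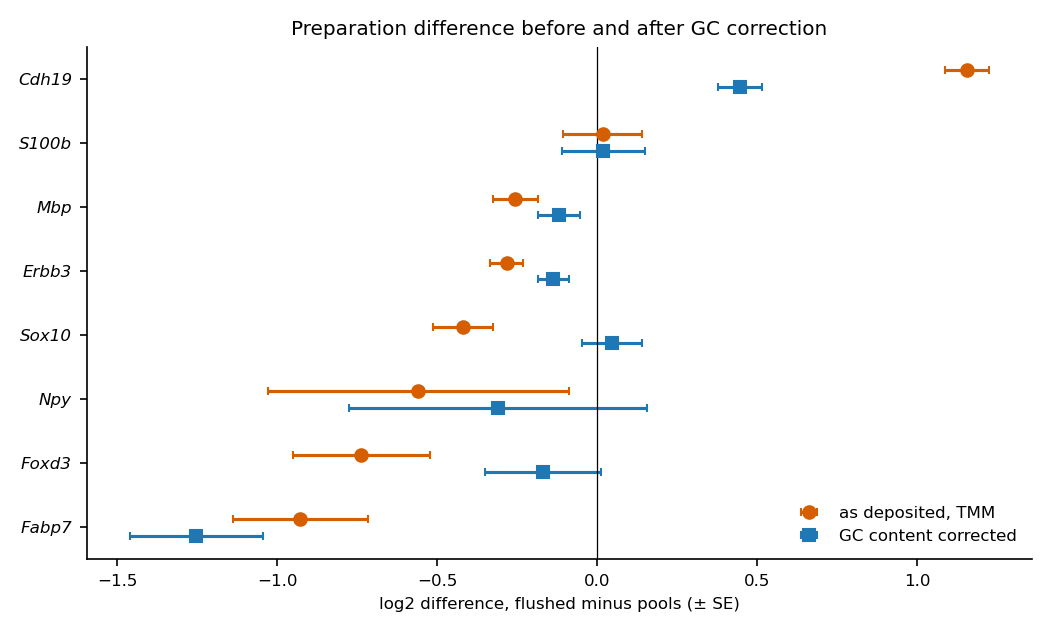
Log2 difference between flushed mice and pools (horizontal axis, bars are ± SE) of the 8 genes, with the library scaling alone (circles) and with GC content corrected (squares). Fabp7 moves from -0.93 to -1.25, Sox10 from -0.42 to 0.05 and Cdh19 from 1.16 to 0.45.

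Between males and females 0 of the 8 genes passed the edgeR test, as 0.116% of all tested genes did (24 of 20601). Sox10 and Erbb3 had an unadjusted p under 0.05. Sox10 was 23.2 ± 4.04 CPM in males and 15.9 ± 3.27 CPM in females (SD, n = 4 each). Within each preparation Sox10 was higher in both male libraries than in both female libraries, an order not counted over all tested genes. Its log2 difference of 0.56 (SE 0.09, 1.47-fold) had an edgeR adjusted p of 0.081, and without 1 library the difference stayed between 0.49 and 0.62 (edgeR adjusted p = 0.087 to 0.48). DESeq2, which called 124 genes (0.602%), called Sox10 (0.56, DESeq2 adjusted p = 0.00027), and so did edgeR with no filter on low counts, which called 784 genes or 2.41% (0.56, edgeR adjusted p = 5.4e-07). The difference was 0.63 in flushed mice and 0.49 in pools, and 0.57 (edgeR adjusted p = 0.077) with GC content corrected. Erbb3 had a difference of 0.13 (SE 0.05, edgeR adjusted p = 0.54). Fabp7 (0.27, SE 0.21), S100b (0.12, SE 0.12), Mbp (-0.02, SE 0.07), Cdh19 (-0.01, SE 0.07), Foxd3 (-0.14, SE 0.22) and Npy (-0.44, SE 0.47) also missed the threshold. No gene of the 8 had a preparation difference that differed by sex (0 of 8 by edgeR, 0 at an unadjusted p under 0.05, 0 by DESeq2 and limma-voom), where 0.0485% of all genes did.

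Sox10 is also made by secretory cells of several glands, and gland genes moved with sex in the same libraries. Of the 4 gland markers, Obp2a (log2 difference 0.57, edgeR adjusted p = 0.03) and Lcn4 (0.53, edgeR adjusted p = 0.028) were higher in males, while Obp2b (0.50, edgeR adjusted p = 0.065) and Lcn3 (0.37, edgeR adjusted p = 0.25) did not pass. Their summed level was 115990 to 164630 CPM in males and 77534 to 110450 CPM in females. Sox9, a related factor of cartilage and glands, had a difference of 0.60 (edgeR adjusted p = 0.098). Glands were not the only list to differ by sex. The median log2 difference was 0.52 for the gland markers, 0.50 for the 9 chondrocyte markers, Sox9 among them, and 1.10 for the 6 blood genes. Of the chondrocyte markers 5 were positive, and of the blood genes all 6, with 0 called in either list. The medians of the other marker lists with a tested gene ran from -0.14 to 0.32. The part of glands or of these other cells in the Sox10 difference was not tested.

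**Figure D4:**
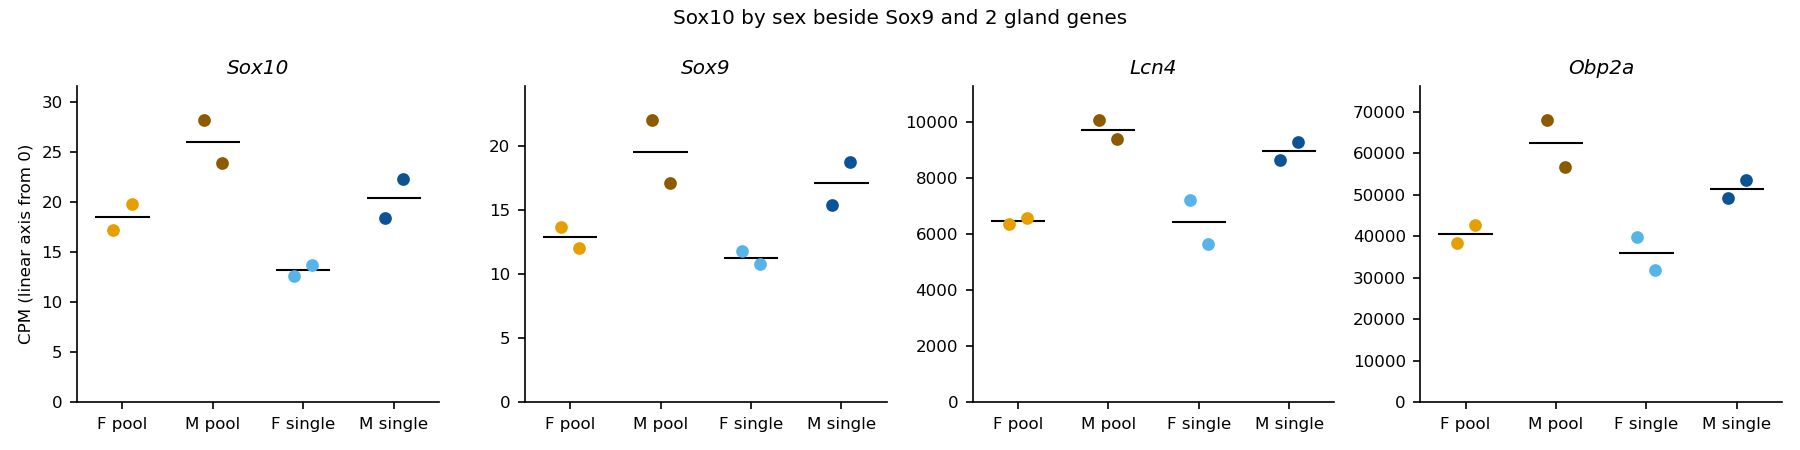
CPM (linear axes from 0) of Sox10, Sox9, Lcn4 and Obp2a in female (F) and male (M) pools and flushed single mice, 1 point per library, with a line at the mean of the 2 libraries of a group. In each preparation both male libraries lie above both female libraries in all 4 genes. The share of all tested genes with this order was not counted, and Sox9, Lcn4 and Obp2a were named after their values were seen.

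Other genes of the same roles split between the preparations, as all genes did. The median log2 difference of all tested genes was -0.02, with 22.6% called higher and 22.9% lower. In the GC-corrected fit the shares were 12.1 and 11.1%. These shares are the background of every list that follows. Of 8 other glial transcription factors, 1 rose and 2 fell (median -0.02): Sox2, a factor of progenitors that is also in supporting cells, fell by 0.54 (edgeR adjusted p = 0.0032), Egr2, which drives myelination, fell by 0.74 (0.005), and Tfap2a rose by 0.53 (0.021). Etv5 had the second highest level of this list after Sox2 (9.88 against 22.6 RPKM) and a difference of 0.14 (edgeR adjusted p = 0.18). After correction for GC content, 2 rose and 4 fell. Of the 14 tested of 16 myelin genes, 3 rose and 4 fell (median -0.10). Ugt8a, which makes the lipid galactosylceramide, rose by 1.02 (edgeR adjusted p = 0.00012), as did Mal by 0.42 (0.0071), and Cnp fell by 0.48 (0.00022). After that correction, 1 of the 14 rose, Mal (0.45), and 1 fell, Cnp (-0.20).

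Of the 8 tested of 10 further ensheathing glia genes, 3 rose and 3 fell (median -0.02). Ngfr, the low-affinity neurotrophin receptor, fell from 6.45 ± 0.641 to 3.68 ± 0.260 CPM (SD, n = 4 each, log2 difference -0.81, edgeR adjusted p = 0.00028). Vim (104.5 RPKM) and Apod (72.5 RPKM) had the highest levels of this list, with differences of -0.19 (edgeR adjusted p = 0.051) and 0.24 (edgeR adjusted p = 0.012). In the GC-corrected fit 1 rose and 3 fell. Of 7 genes of non-myelinating Schwann cells, 2 rose and 2 fell. Scn7a, a sodium channel of these cells, rose by 0.67 (edgeR adjusted p = 2.8e-05), and Ncam1 fell by 0.16 (0.044). In that fit 2 rose and 1 fell.

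On the neuregulin pathway of Erbb3, 11 of 12 further genes were tested, of which 3 rose and 3 fell (median -0.01). The receptor Erbb4 rose by 0.84 (edgeR adjusted p = 4e-05) and Adam10, a protease that sheds membrane proteins, by 0.47 (0.0027). Lrig1, which lowers ErbB receptor levels, fell by 0.39 (edgeR adjusted p = 0.0024) and Bace1, the protease that cuts neuregulin, by 0.17 (0.018). The other two that passed, named after their values were seen, were the ligand Nrg1 (0.30 higher, edgeR adjusted p = 0.015) and Erbb2 (0.33 lower, edgeR adjusted p = 0.0027), the partner of Erbb3. With GC content corrected, 1 rose, Erbb4 (0.36, edgeR adjusted p = 0.018), and 2 fell, while Erbb2 stood at 0.02.

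The families of Npy, S100b, Fabp7 and Cdh19 were read in the same way, beside 22.6% of all tested genes higher and 22.9% lower. With GC content corrected these shares were 12.1 and 11.1%. Of 7 tested of 11 genes of the Npy system, 2 rose and 0 fell: the receptors Npy2r (log2 difference 1.57, edgeR adjusted p = 0.0012) and Npy1r (1.01, edgeR adjusted p = 0.0018). Npy2r was low, at 0.270 to 0.402 CPM in pools and 0.753 to 1.18 CPM in flushed mice. Both passed with GC content corrected (1.25 and 0.73), where 3 of the 7 rose, with Pam (0.18, edgeR adjusted p = 0.036) as the third, and 1 fell, Pcsk1 (-0.36, edgeR adjusted p = 0.047). Of 12 tested of 13 genes of the S100 family and its receptor Ager, 5 fell and 0 rose. S100a16 fell by 0.46 (edgeR adjusted p = 0.00055) and S100a1 by 0.47 (6e-04), and neither passed with GC content corrected (-0.14, edgeR adjusted p = 0.14, and -0.21, edgeR adjusted p = 0.053). All 3 other Fabp genes tested fell: Fabp4, of fat cells and capillaries, by 1.07 (edgeR adjusted p = 0.0029), Fabp3 by 0.86 (0.013) and Fabp5 by 0.45 (0.018). With GC content corrected, Fabp4 (-1.40) and Fabp5 (-0.41) passed beside Fabp7. Of 7 tested type II cadherins other than Cdh19, 0 rose and 2 fell, Cdh11 (-0.27) and Cdh5 (-0.33), both with an edgeR adjusted p under the threshold (0.018 and 0.033). In the GC-corrected fit 1 rose and 3 fell, Cdh11 among them (-0.44, edgeR adjusted p = 0.0029), and Cdh5 lost its call (-0.14, edgeR adjusted p = 0.4).

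By the root mean square difference of centred log2(CPM + 0.5) over the 8 libraries, among 14175 genes, the 2 most alike in pattern were Unc5a (0.09) and Aldh3b2 (0.10) for Sox10, Tpgs1 and Nxph3 for Foxd3, and Igf2r (0.03) and Zfyve1 for Erbb3. For Cdh19 they were the vomeronasal receptor genes Vmn2r105 (0.04) and Vmn2r8 (0.08), which rose by 1.18 and 1.05 between preparations; this likeness restates the rise for which Cdh19 was listed. Reads of such receptor genes can be divided among similar copies. Fabp7 had no gene so near: Mc4r (0.15) and Emid1 (0.17) came first. The nearest to Npy were Soga3 and Clba1, to S100b Gga3 and Spock1, and to Mbp Zhx2 and Mcee. Npy, at 0.119 to 0.517 CPM, lay near or below the added 0.5, which flattens its pattern, so its matches say little. With a pseudocount of 2, 6 of these 16 names remained. Both names were replaced for Foxd3, Fabp7 and Npy.

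Markers of other cells were read beside the glial genes. Their counts stand against 22.6% of all tested genes higher and 22.9% lower, or 12.1 and 11.1% in the GC-corrected fit. The lists are short. The oligodendrocyte genes Mog, Mobp, Opalin, Olig1 and Olig2 were at or near 0 in every library, at 0.221 CPM at most, and Ermn, the only one of 7 such markers that could be tested, had 0.511 to 1.46 CPM in pools and 1.30 to 2.696 CPM in flushed mice (log2 difference 1.15, edgeR adjusted p = 0.02, and 0.49 with an edgeR adjusted p of 0.31 when GC content was corrected). The summed level of all 7 was 0.869 to 2.11 CPM in pools and 1.39 to 2.81 CPM in flushed mice. The 4 trigeminal neuron markers summed to 0.221 to 0.595 CPM in pools and 0.353 to 0.589 CPM in flushed mice. Chondrocyte markers, which bear on S100b, fell in 5 of 9 cases and rose in 1, and 1 fell and 1 rose in the GC-corrected fit. Their summed level was 618 to 691 CPM in pools and 271 to 328 CPM in flushed mice. Col11a2 made up most of it, with 500 to 567 CPM in pools and 158 to 247 CPM in flushed mice. Fibroblast markers fell in 3 of 6 cases and rose in 2, and 4 fell and 0 rose in the GC-corrected fit. Their summed level was 34190 to 44765 CPM in pools and 15981 to 21439 CPM in flushed mice. Col1a1, Col1a2 and Col3a1 made up nearly all of it. Dcn, of the same list, had 315 to 383 CPM in pools and 417 to 447 CPM in flushed mice. Endothelial markers, which bear on Fabp4, fell in 3 of 4 cases, with 117 to 127 CPM against 91.8 to 108 CPM. Cdh5 is itself 1 of the 4 and among those that fell. None of these 3 calls held in the GC-corrected fit. Gland markers, which bear on Sox10, fell in 3 of 4 cases (96142 to 164630 CPM in pools, 77534 to 122730 CPM in flushed mice), and in 2 of 4 in the GC-corrected fit. Epithelial markers fell in 4 of 6 cases and rose in 1 (1020 to 1146 against 833 to 894 CPM), vomeronasal neuron markers fell in 2 of 4 (812 to 990.4 against 772 to 843 CPM) and macrophage markers in 2 of 4 (181 to 215 against 177 to 206 CPM). In the GC-corrected fit 1 epithelial marker fell and 1 rose, 1 macrophage marker rose, and the neuron markers kept neither call. Vomeronasal receptor genes, not among these neuron markers, took 0.177 to 0.212% of counts in pools and 0.354 to 0.4395% in flushed mice. All 6 blood genes fell, also in the GC-corrected fit, with a summed level of 1168 to 1405 CPM in pools. In flushed mice this sum was 98.1 and 87.8 CPM in females and 469 and 390 CPM in males. Of the 6, 3 passed for the interaction, where 0.0485% of all tested genes did. The part of these cells in the glial differences was not tested. The summed level of the glial genes without Cdh19 was 204 to 224 CPM in pools and 155 to 186 CPM in flushed mice. With Cdh19, listed for its rise, it was 222 to 245 and 202 to 228 CPM. Erbb3 made up the largest part of these sums, at 113 to 129.5 CPM in pools and 90.9 to 106 CPM in flushed mice. The sums therefore mostly follow Erbb3 and are not a measure of the amount of glia.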

How the data were processed

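Polyadenylated RNA of 8 vomeronasal epithelium libraries was sequenced with a stranded kit, per the labels' protocols. The submitters' processing notes name STAR 2.7.1a, featureCounts 1.6.5 and the build GRCm38 (mm10). What the authors deposited are expected counts per gene: multi-mapped reads were split as fractions, per the file headers. The headers also show reverse-stranded counting of exons of an Ensembl annotation that the authors had changed, and reads over more than 1 gene were left out. Of the 8 glial genes, only Mbp had a count that was not whole, in 1 library.

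Genes were named by identifier from GENCODE M21; 409 of 48831 had no name and held 0.05% of counts. The rounded counts entered edgeR 4.0.16, run in R 4.3.3 (quasi-likelihood F test, TMM, filterByExpr on the 4 groups, sex and preparation as additive terms, an interaction in a further fit), with Benjamini-Hochberg adjustment over 20601 genes. Within-sex and within-preparation values compare 2 libraries with 2 and take the spread from all 4 groups. The scripts were tested on simulated data. Alternatives were DESeq2 1.42.0, limma-voom (limma 3.58.1), other scalings and filters, each library left out, and, chosen after seeing the data, offsets from a natural spline (6 degrees of freedom) on transcript GC content, or on GC content and exon length; 125 tested genes had no GC value. The labels tell replicates apart as single mice or as pools. Intervals and errors cover these libraries, and PCR duplicates cannot be told from molecules.

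The members and lists were chosen with earlier results of these data known. The genes named are the 8 members, the 2 with the smallest preparation p and the 2 with the highest mean RPKM of each list, from which a smaller set is printed, and the 2 most alike in pattern. Others, such as Tfap2a, Erbb2, Nrg1 and those of the marker lists, were named after their values were seen. Some genes that the rule takes are not reported here. Sequences and transcript GC content come from GENCODE M21 (GRCm38).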

Additional observations from a re-analysis of the deposited data

Results flagged for a closer look

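Cdh19 in flushed female 2, at 47.3 CPM, stood apart from the other 3 flushed libraries, which lay between 41.9 and 42.5 CPM. S100b in flushed male 3, at 18.9 CPM, stood apart from the other 3 flushed libraries, between 13.4 and 14.3 CPM. In both, the gap to the nearest library exceeded Dixon's 95% critical value for 4 samples, among 16 combinations of gene and preparation examined, and chance flags about 1 in 20. Without each library in turn the Cdh19 log2 difference between preparations was 1.09 to 1.20 and that of S100b -0.10 to 0.11. For Cdh19, listed for its rise in flushed libraries, the flag and this range are a description only and support nothing.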

How the results depend on the processing

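After correction for GC content, 1 of the 7 tested genes differed between preparations in place of 5, and with GC content and length corrected 2 did. Sox10 reversed its sign in both (0.047 and 0.029); these offsets remove what moves with GC content, and the cause of that trend was not tested. Within females alone 3 of 7 passed and within males alone 1, with 2 libraries against 2. With 1 library left out, 4 to 5 of 7 passed for preparation, 0 to 0 of 8 for sex and 0 to 0 of 8 for the interaction. For sex, DESeq2 called 1 of 8 genes and edgeR with no filter on low counts called 1, Sox10 in both. DESeq2, limma-voom and the other scalings and filters left 4 to 5 of 7 preparation calls. Counting all genes, the corrected fits called 4777 and 4497 for preparation against 9377; for sex DESeq2 called 124 and the fit without a filter 784 against 24; for the interaction, DESeq2 called 28, the fit without a filter 263, limma-voom 7, and fits without 1 library 4 to 18 against 10. With total counts as library sizes the median of all genes was 0.10 in place of -0.02 for preparation and -0.12 in place of 0.00 for sex, and Mbp lost its call. Npy, at 3 to 10 counts, and Foxd3, at 38 to 93, are limited by depth. No paired analysis was possible because a pool's title names 2 mice and no replicate number, pools 1 and 2 are numbered in listed order only, and no label ties a pool to a flushed mouse.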

Other observations

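With GC content corrected, several glial and related genes outside the 8 passed that had not passed before. They were picked after their values were seen, and 23.2% of all tested genes passed in that fit. Zeb2, a transcription factor that Schwann cells need to mature, went from a log2 difference of 0.06 (edgeR adjusted p = 0.47) to -0.41 (edgeR adjusted p = 0.0017). Etv5, a factor that acts downstream of growth factor signals, went from 0.14 to 0.32 (edgeR adjusted p = 0.02). Gfra3, the receptor for artemin, went from 0.00 to 0.35 (edgeR adjusted p = 0.032). Among type II cadherins, Cdh6 went from -0.34 to -0.68 (edgeR adjusted p = 0.0047) and Cdh10 from -0.64 to -1.60 (edgeR adjusted p = 0.0092), while Cdh22 went from 0.10 to 0.59 (edgeR adjusted p = 0.022). Cdh10, at 7 to 28 counts per library, and Cdh22, at 32 to 68, are limited by depth.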
